A study of Mus musculus with 7 samples.

Results

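TGF-beta and BMP signalling was described through 31 genes that encode its ligands, latency proteins, receptors, SMADs, inhibitors and target genes. They were taken by name from the 34932 annotated genes in bulk RNA-seq of mouse long-term haematopoietic stem cells (LT-HSCs), which sustain blood formation for life. Cells were sorted from bone marrow as lineage-negative, Sca-1+, cKit+, CD150+ and CD48-. There were 4 libraries labelled B4galt1 KO (genotype 129S1/C57Bl/6, B4-/-, a full knockout) and 3 labelled WT (129S1/C57Bl/6), and no treatment is labelled in either group. B4galt1 encodes a galactosyltransferase that extends N-glycans, and the comparison asks how LT-HSC expression differs without it. The labels do not say whether replicates are separate animals, so p-values measure the spread between these libraries, which may be partly technical.

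TGF-beta is secreted in a latent form, bound to its own propeptide and tethered by a latent TGF-beta binding protein (LTBP) in the matrix or by Lrrc32 (GARP) on the cell surface. Once released, TGF-beta ligands bind type II and type I receptor kinases that phosphorylate Smad2 and Smad3, while BMPs act through Smad1 and Smad5, and both branches use Smad4 to reach target genes such as the Id genes. In bone marrow, TGF-beta is known for keeping stem cells quiescent, and megakaryocytes and platelets are known as a store of it.

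Each library held between 23508985 and 34941390 estimated reads. B4galt1 itself was at 19.3, 14.9, 14.8 and 14.6 CPM (read counts scaled to a common library size) in replicates 1 to 4 labelled KO, against 19.2, 24.4 and 11.3 CPM in the 3 WT replicates in order, and its groups overlapped (log2 fold change -0.20, SE 0.27, edgeR adjusted p = 0.758). The RNA therefore does not check the genotype, and each direction below is between libraries as labelled. Of 10 stem cell and sort markers, all reached 1 CPM in at least 1 library. The RNA of Cd48, the marker the gate selects against, was at 105.3 to 141.8 CPM in the libraries labelled KO and at 14.0 to 32.3 CPM in WT, and rose (log2 fold change 2.40, SE 0.269, edgeR adjusted p = 0.000804). The summed level of 17 megakaryocyte and platelet genes ran from 1655 to 2623 CPM with the KO label, and from 6819 to 14191 CPM in WT. KO replicate 4 and WT replicate 3 stood apart in 4 Y-linked genes, whose sum was 10.9 and 6.04 CPM there and 255.7 to 364.6 CPM in the other libraries. In bulk samples, fewer cells of a type and less RNA per cell cannot be told apart.

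Among the 31 genes, the changes that passed the test were in genes for proteins that hold latent TGF-beta, while no ligand, receptor or SMAD gene passed. Of 29 genes with enough reads to be tested, 2 fell, Ltbp1 and Lrrc32, and 0 rose (edgeR quasi-likelihood test, adjusted p below 0.05). Over all 14695 genes tested, 1.66% fell, 0.599% rose and 2.26% were called in either direction. At an unadjusted p below 0.05, 3 of the 29 lay lower and 2 lay higher, where 14.6% of all tested genes stood in either direction. DESeq2 called 2 lower and 2 higher, Skil and Id3, and limma voom 2 lower and 1 higher, Id3. These tools also called more genes over the whole table, with 3.36% lower and 2.24% higher by DESeq2 and 2.99% lower and 1.83% higher by voom. The groups did not overlap for 4 genes that were higher in the libraries labelled KO and 6 that were lower. Over all tested genes these shares were 8.23% and 7.47%, or 15.7% together. The median log2 fold change of the 29 was -0.05, against 0.03 over all genes tested, and it was -0.29 without WT replicate 1. Without both libraries low in Y-linked genes, 2 of the set fell and 0 rose (edgeR), with a median of -0.21. For 15 of the 29 the 95% interval of the log2 fold change lay within a 2-fold change in either direction, and for the other 14 it reached further. Lrrc32 entered the test through its WT reads alone, so its count has to be read with that filter in mind.

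**Figure D1:**
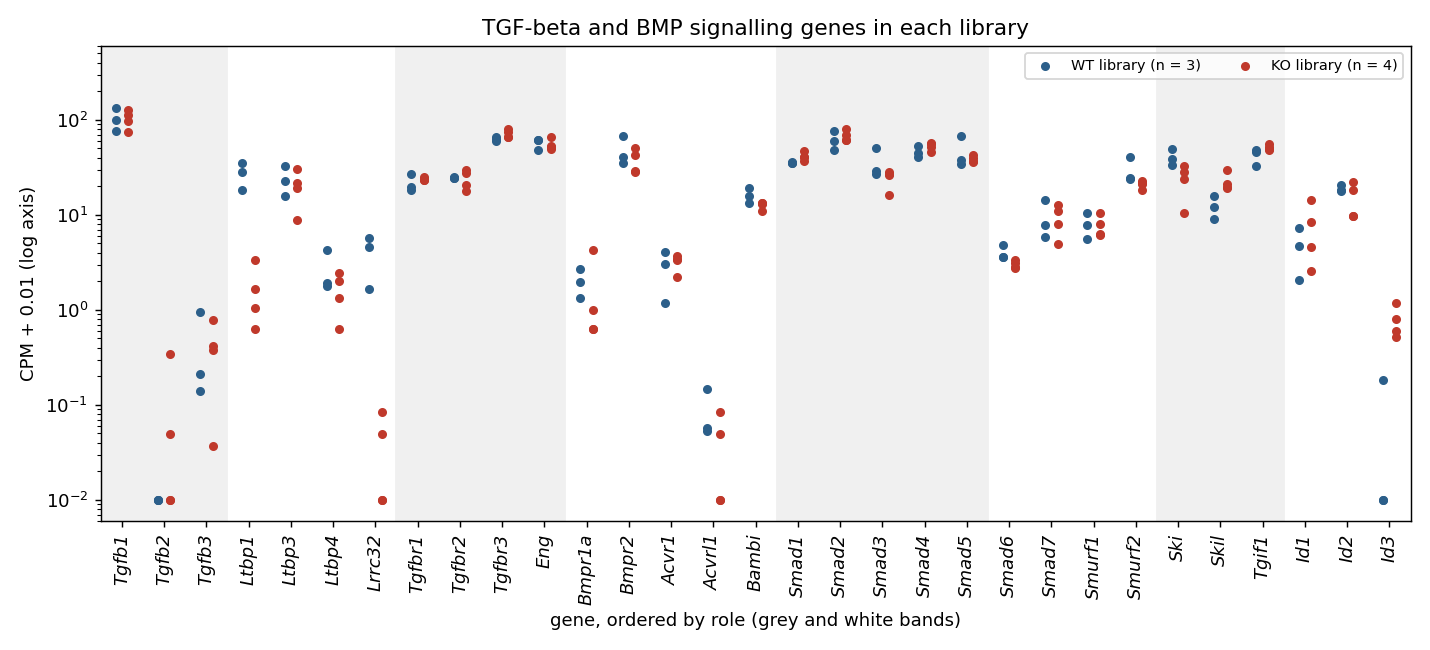
Level of each of the 31 genes in each library, as CPM + 0.01 on a log axis, with genes ordered by role in grey and white bands (ligands, latency proteins, TGF-beta receptors, BMP receptors, SMADs, inhibitory SMADs and SMURFs, co-repressors, Id genes). Blue points are the 3 WT libraries and red points the 4 libraries labelled KO. Ltbp1 and Lrrc32 stand apart between the groups, and for 19 of the 29 tested genes the groups overlap.

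Tgfb1 was the most abundant of the 3 ligands, and its groups overlapped. It stood at 74.7, 112.2, 98.4 and 125.5 CPM in replicates 1 to 4 labelled KO, against 132.9, 75.8 and 98.9 CPM in the 3 WT replicates in order. The log2 fold change was 0.00 (SE 0.228), with a 95% interval from -0.50 to 0.51 (edgeR adjusted p = 0.999). Per length, Tgfb1 was the most abundant of the 31 genes in both groups, at 73.4 ± 22.3 TPM (SD, n = 4) and 64.1 ± 21.2 TPM (SD, n = 3). Tgfb3 was scarce, at 0.027 to 0.937 CPM over the 7 libraries, with a log2 fold change of -0.10 and an interval from -2.26 to 2.06. Tgfb2 was too low to test, with 1 and 9.2 estimated reads in KO replicates 1 and 2 and 0 in the other libraries.

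Ltbp1 encodes an LTBP that binds the small latent complex and anchors it in the matrix. Ltbp1 (ENSMUSG00000001870, GRCm38 chromosome 17, 75005568 to 75392512, plus strand) was at 3.36, 1.03, 1.65 and 0.621 CPM in replicates 1 to 4 labelled KO, against 28.6, 34.9 and 18.5 CPM in the 3 WT replicates in order. Every WT library was above every library labelled KO, and the mean level was 16.4-fold lower in the latter. Ltbp1 fell by 4.05 on the log2 scale (SE 0.503, 95% interval -5.16 to -2.94, edgeR adjusted p = 0.00163). It was -4.66 without KO replicate 1, and -2.36 (adjusted p = 0.000929) with an offset for the average length of the transcripts its reads were assigned to. On the deposited TPM scale Ltbp1 was at 1.71 ± 0.248 (SD, n = 4) against 7.43 ± 0.864 TPM (SD, n = 3). Most of the TPM in the libraries labelled KO was on a 519 nt transcript, Ltbp1-207. It was at 1.26 to 1.64 TPM there and at 0.334 to 1.86 TPM in WT.

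Ltbp1 has a pair of annotated starts, which give a long and a short coding transcript, and reads were assigned to both in WT. The windows around these starts are shown because both starts gave fewer coding reads in the libraries labelled KO, summed over each group. They are RefSeq windows of GRCm38.p6, from 250 bases before to 50 after each start, on the plus strand. The first is chr17:75005279-75005578 and the second chr17:75178531-75178830. Capitals mark the SMAD box, CAGAC or its reverse complement GTCTG.
Ltbp1, first start: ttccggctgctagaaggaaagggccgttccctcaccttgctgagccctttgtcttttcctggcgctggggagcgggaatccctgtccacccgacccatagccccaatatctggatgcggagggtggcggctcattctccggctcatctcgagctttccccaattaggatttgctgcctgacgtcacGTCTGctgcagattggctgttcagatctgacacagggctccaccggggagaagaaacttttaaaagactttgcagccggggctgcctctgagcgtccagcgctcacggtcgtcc
Ltbp1, second start: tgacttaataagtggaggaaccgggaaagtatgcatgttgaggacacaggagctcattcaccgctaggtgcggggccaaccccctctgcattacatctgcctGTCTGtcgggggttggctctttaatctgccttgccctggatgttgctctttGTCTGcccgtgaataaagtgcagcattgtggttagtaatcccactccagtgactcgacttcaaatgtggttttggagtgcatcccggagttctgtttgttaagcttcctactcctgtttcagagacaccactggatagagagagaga
The first window held 1 SMAD box and the second 2, where 49.6% of all 32851 promoter windows of this length held at least 1. Neither held the GATA motifs AGATAA or TGATAA on either strand, which 11.2% and 9.05% of all windows held. A match or its absence describes these letters only. Of the 31 genes, 21 had a window in the table and 10 did not, Lrrc32 and Skil among them.

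The long coding transcript from the first start (Ltbp1-201, 6671 nt) carried 321.6, 53.7 and 81.2 estimated reads in the 3 WT replicates in order. In KO replicates 1 to 4 it carried 36.9, 0, 10.5 and 6.0. Coding transcripts from the second start together carried 47.0, 38.7 and 75.0 estimated reads in the WT replicates, and 0, 13.1, 0 and 0 in the KO replicates. Coding reads from each start were thus fewer in every library labelled KO than in any WT library, and KO replicate 2 had its coding reads on the second start only. Most WT reads fell on a transcript annotated as a retained intron at the 3′ end of the gene (Ltbp1-206, 3277 nt), which held 455.3, 650.4 and 252.8 estimated reads, or 54.1%, 87.2% and 59.1% of the gene. It held 37.1, 0, 17.5 and 0 in the KO replicates. The exception was a 519 nt transcript at the 5′ end (Ltbp1-207), with 12 to 16.6 estimated reads in the KO replicates and 3.3 to 15.4 in WT. Counting coding transcripts only, the log2 fold change was -3.63 (edgeR adjusted p = 0.0294).

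**Figure D2:**
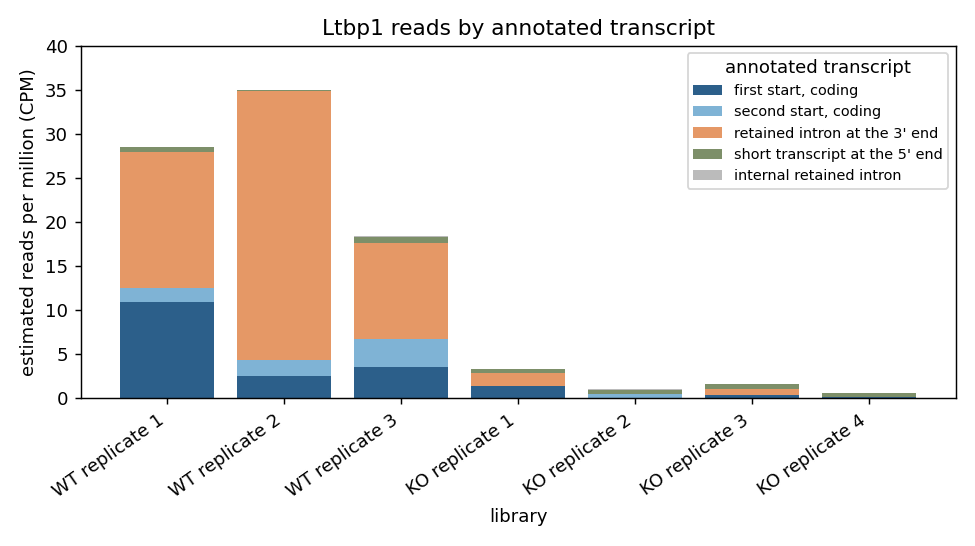
Ltbp1 reads in CPM by annotated transcript, stacked for each library, with WT libraries on the left and those labelled KO on the right. The retained-intron transcript at the 3′ end takes the largest part in each WT library, up to 30.5 CPM in WT replicate 2, and the short transcript at the 5′ end is 0.448 to 0.578 CPM in the libraries labelled KO.

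Lrrc32 encodes GARP, which holds latent TGF-beta on the surface of platelets and regulatory T cells. Lrrc32 (ENSMUSG00000090958, GRCm38 chromosome 7, 98489283 to 98502181, plus strand) had 1, 2, 0 and 0 estimated reads in replicates 1 to 4 labelled KO, against 48.0, 123.0 and 104.7 in the 3 WT replicates in order. In CPM that was at most 0.0739 in the libraries labelled KO and 1.63, 5.76 and 4.53 in WT, so the groups lay far apart. Summed over each group, 3 reads stood against 276, a 145.6-fold ratio whose counting interval ran from 49.3 to 710.1 and covers counting error only. The gene fell by the edgeR test (adjusted p = 0.00185). Its fitted log2 fold change of -7.01 depends on the prior count and moved to -7.96 without KO replicate 2. All reads were on 1 of its 3 annotated transcripts, the 3817 nt Lrrc32-201. Of the regulatory T cell markers Foxp3, Il2ra, Ctla4 and Cd4, none reached 1 CPM in any library, and their sum was 0.378 to 1.40 CPM in the libraries labelled KO and 0.609 to 1.21 CPM in WT.

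The other LTBP genes overlapped between the groups. Ltbp3, another LTBP that binds the latent complex, ran from 8.78 to 30.2 CPM with the KO label, and from 15.7 to 32.5 CPM in WT (log2 fold change -0.25, SE 0.377). Ltbp4 ran from 0.621 to 2.45 CPM and from 1.77 to 4.22 CPM (-0.72, SE 0.555). Whether Ltbp1 differs in its change from Ltbp3 and Ltbp4 was not tested.

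TGF-beta receptor RNA was present in every library, and no receptor passed the test. Tgfbr1, the type I receptor kinase, was at 23.0 to 24.9 CPM in the libraries labelled KO and 18.5 to 26.9 CPM in WT (log2 fold change 0.13, 95% interval from -0.30 to 0.57). Tgfbr2, the type II receptor that binds the ligand, was at 18.0 to 29.8 and 24.5 to 25.2 CPM (-0.04, interval from -0.52 to 0.44). Tgfbr3 (betaglycan), a co-receptor, was at 66.0, 75.4, 80.5 and 66.2 CPM in replicates 1 to 4 labelled KO, against 59.3, 65.96 and 63.3 CPM in the 3 WT replicates in order. Its groups just failed to overlap, by less than the spread within either, and it did not pass the test (log2 fold change 0.20, SE 0.148, edgeR adjusted p = 0.568). Eng (endoglin), a co-receptor that also marks LT-HSCs and endothelium, was at 49.6 to 66.4 and 48.1 to 61.8 CPM (-0.05, interval from -0.43 to 0.33). Of the endothelial genes, Cdh5 had 0 reads in every library, while Pecam1 was at 32.7 to 58.6, Emcn at 23.4 to 51.2 and Kdr at 0.475 to 4.62 CPM over the 7 libraries, and their part in the Eng level was not tested. For these 4 receptors the interval lay within a 2-fold change.

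On the deposited TPM scale, Tgfbr1 stood at 6.91 ± 1.30 TPM (SD, n = 4) with the KO label and 3.88 ± 0.495 TPM (SD, n = 3) in WT, with no overlap. The shorter coding transcript Tgfbr1-203 (1713 nt) carried 133.4, 84.1, 75.1 and 178.4 estimated reads in replicates 1 to 4 labelled KO, against 16.7, 55.5 and 21.8 in the 3 WT replicates in order. With the length offset the log2 fold change of Tgfbr1 was 0.55 and still did not pass (edgeR adjusted p = 0.245). In TPM, 7 of the 29 genes were higher without overlap and 3 lower, where 16.2% and 4.02% of all tested genes were, so higher TPM was common across the transcriptome.

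Of the 5 BMP receptor genes, 4 had enough reads to be tested and 0 passed. Bmpr2, the type II BMP receptor, was at 28.02 to 50.5 CPM in the libraries labelled KO and 35.2 to 67.2 CPM in WT (log2 fold change -0.35, SE 0.278). Bmpr1a, a type I BMP receptor, was at 0.621 to 4.21 and 1.34 to 2.67 CPM (-0.30, SE 0.714). Acvr1, a type I receptor also called ALK2, was at 2.22 to 3.71 and 1.17 to 4.10 CPM (0.19, SE 0.460). Acvrl1 (ALK1), the endothelial type I receptor, had at most 4 estimated reads in any library and was not tested. Bambi, a pseudoreceptor that lacks the kinase and dampens signalling, was at 10.9, 13.27, 13.2 and 13.0 CPM in replicates 1 to 4 labelled KO, against 13.32, 19.0 and 15.95 CPM in the 3 WT replicates in order. The groups of Bambi met at these values without overlapping, and it did not pass (log2 fold change -0.35, SE 0.216, edgeR adjusted p = 0.488). On the deposited TPM scale its groups overlapped.

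None of the 5 SMADs that carry the signal passed the test. Smad2, a TGF-beta SMAD, was at 61.7 to 80.3 CPM in the libraries labelled KO and 48.2 to 76.7 CPM in WT (log2 fold change 0.15, SE 0.19). Smad3, its partner, was at 26.5, 28.3, 27.1 and 16.3 CPM in replicates 1 to 4 labelled KO, against 27.2, 51.0 and 29.3 CPM in the 3 WT replicates in order (-0.54, SE 0.272, edgeR adjusted p = 0.395). KO replicate 4 was low and WT replicate 2 high, and the remaining 5 libraries lay between 26.5 and 29.3 CPM. Smad1, a BMP SMAD, was at 36.6, 40.2, 40.4 and 47.0 CPM against 35.5, 35.6 and 35.4 CPM. The WT libraries were nearly identical for Smad1 and all lay below the others, but the gene did not pass (log2 fold change 0.21, SE 0.16, edgeR adjusted p = 0.573). Smad5, the other BMP SMAD here, was at 35.7 to 42.5 and 34.6 to 67.5 CPM (-0.27, SE 0.233). Smad4, the shared SMAD, was at 45.7 to 57.5 and 40.2 to 53.2 CPM (0.20, SE 0.167). For 4 of the 5, all but Smad3, the 95% interval lay within a 2-fold change.

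**Figure D3:**
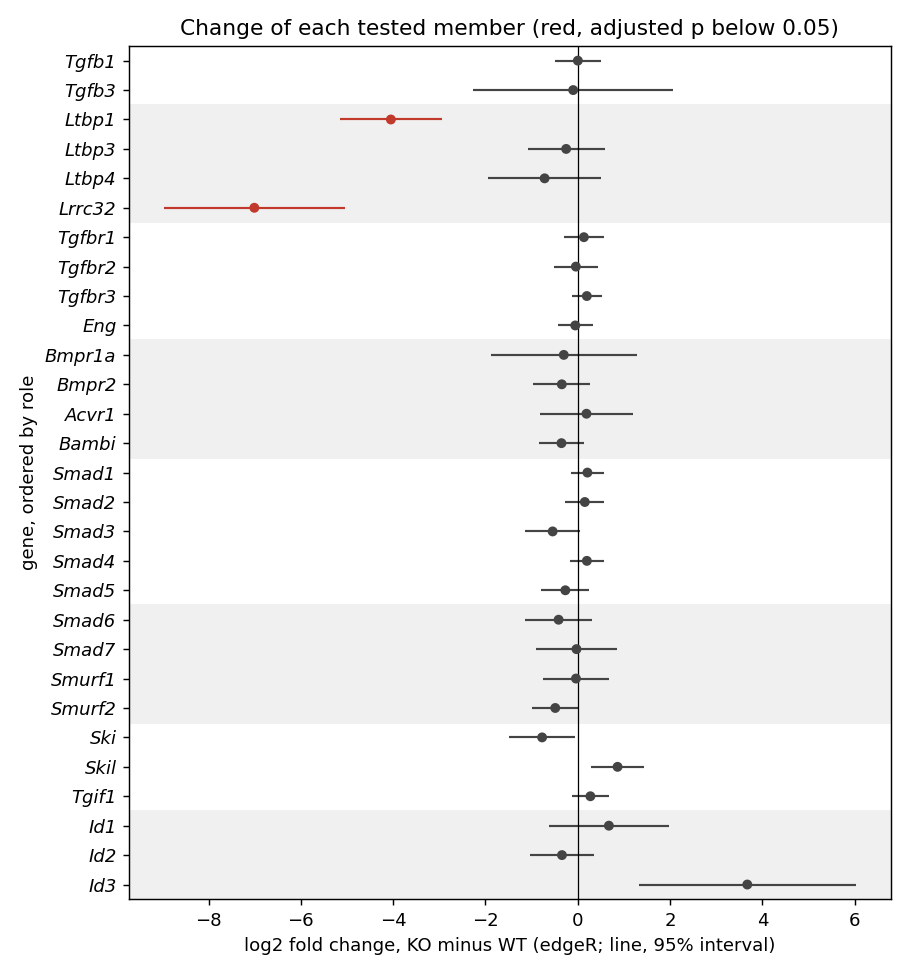
Log2 fold change of the 29 tested genes, KO minus WT, as points with 95% intervals from the edgeR fit, ordered by role. The intervals of Ltbp1 and Lrrc32 (red) lie far below 0, those of Ski, Skil and Id3 exclude 0 without passing the adjusted test, and those of the SMADs and receptors include 0.

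Inhibitors of the pathway did not pass. Smad6, an inhibitory SMAD of the BMP branch, was at 3.36, 2.77, 2.82 and 3.08 CPM in replicates 1 to 4 labelled KO, against 3.63, 4.78 and 3.62 CPM in the 3 WT replicates in order. Smurf2, a ubiquitin ligase that degrades SMADs and receptors, was at 22.9, 18.3, 21.6 and 21.4 CPM against 24.7, 40.3 and 23.6 CPM. In CPM both were lower in every library labelled KO than in any WT library, with log2 fold changes of -0.41 (SE 0.326) and -0.49 (SE 0.226), and edgeR adjusted p-values of 0.584 and 0.357. On the deposited TPM scale the groups overlapped for both genes. Smad7, the inhibitory SMAD that recruits SMURFs to receptors, was at 4.92 to 12.6 and 5.81 to 14.2 CPM (-0.03, SE 0.394). Smurf1 was at 6.06 to 10.5 and 5.57 to 10.4 CPM (-0.04, SE 0.319). Smad6 was the only gene of the set, among those with a window, to hold the palindromic SMAD element GTCTAGAC, which 0.213% of all windows held. It overlaps the RefSeq start on the minus strand (GRCm38.p6, chr9:64022045-64022074), with the element in capitals.
Smad6 element: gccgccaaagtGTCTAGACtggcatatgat

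Among the nuclear co-repressors, Skil and Ski lay on opposite sides of 0, and neither passed the main test. Skil (SnoN), a co-repressor that is itself a TGF-beta target, was at 19.3, 19.8, 29.8 and 21.2 CPM in replicates 1 to 4 labelled KO, against 15.8, 12.2 and 9.05 CPM in the 3 WT replicates in order. All libraries labelled KO were above all WT libraries, with a log2 fold change of 0.86 (SE 0.258, 95% interval from 0.29 to 1.43, edgeR adjusted p = 0.141). It passed with DESeq2 (0.84, adjusted p = 0.0335) and with the length offset in edgeR (1.46, adjusted p = 0.0336). Ski, its homologue, was at 32.4, 24.1, 27.9 and 10.4 CPM against 38.8, 48.8 and 33.8 CPM, and each library labelled KO was below each WT library. Its log2 fold change was -0.77 (SE 0.326, interval from -1.50 to -0.05, edgeR adjusted p = 0.309). Most Ski reads, 62.7% to 99.4% by library, were on a transcript annotated as non-coding (Ski-203), and counting coding transcripts alone the value was 0.24 (edgeR adjusted p = 0.928). Tgif1, a homeodomain co-repressor of SMADs, was at 48.2 to 55.6 and 32.4 to 48.6 CPM (0.27, SE 0.179).

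The Id genes, direct targets of BMP signalling that encode inhibitors of helix-loop-helix factors, did not pass the main test. Id3 (ENSMUSG00000007872, GRCm38 chromosome 4, 136143497 to 136145755, plus strand) had 13, 16, 32 and 29 estimated reads in replicates 1 to 4 labelled KO, against 0, 0 and 4 in the 3 WT replicates in order. In CPM it was at 0.507, 0.591, 1.17 and 0.783 against 0, 0 and 0.172. Every library labelled KO was above every WT library, and the reads summed over each group, 90 and 4, gave a 14.2-fold ratio (counting interval 5.37 to 53.3). Id3 did not pass the main test (edgeR adjusted p = 0.126) and passed with DESeq2 (adjusted p = 0.0325) and limma voom (adjusted p = 0.0354). It entered the test through its KO reads, so these calls have to be read with that filter in mind. Its fitted log2 fold change of 3.67 (SE 1.06) rested on the 4 reads of WT replicate 3, without which it was 7.42 (edgeR adjusted p = 0.0528). The Id3 window (RefSeq, GRCm38.p6, plus strand, chr4:136143572-136143871) is shown because Id3 was the Id gene whose groups did not overlap, with its 2 SMAD boxes in capitals. All Id3 reads were on Id3-201, which starts at 136143497. The window lies wholly downstream of that start, so it does not show the bases before it. The BMP GC box GGCGCC, which 11.9% of all windows held, was absent from this window. Of the 31 windows of genes of the set, 10 (32.3%) held it, and Id2 was among these genes. Whether that share differs from all windows was not tested.
Id3: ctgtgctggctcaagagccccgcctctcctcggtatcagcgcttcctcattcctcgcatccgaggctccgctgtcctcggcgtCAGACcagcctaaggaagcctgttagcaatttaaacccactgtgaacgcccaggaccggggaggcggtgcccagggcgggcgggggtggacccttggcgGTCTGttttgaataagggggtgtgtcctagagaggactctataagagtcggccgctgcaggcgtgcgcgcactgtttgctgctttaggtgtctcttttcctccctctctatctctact

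Id1 was at 2.58, 8.39, 4.53 and 14.2 CPM in replicates 1 to 4 labelled KO, against 2.04, 4.64 and 7.33 CPM in the 3 WT replicates in order (log2 fold change 0.67, SE 0.586, edgeR adjusted p = 0.622). Id2 was at 9.64, 9.68, 18.3 and 22.2 CPM against 18.1, 20.8 and 18.0 CPM (-0.34, SE 0.312, edgeR adjusted p = 0.64). For both, KO replicate 4 was the highest of the 4 libraries labelled KO. The same library was the highest for Jun, an early-response gene, which was at 44.3, 29.5, 96.1 and 200.8 CPM in replicates 1 to 4 labelled KO, against 9.48 to 11.9 CPM in WT. Over 13 immediate early genes, the summed level was 564.8, 486.7, 846.8 and 1449 CPM in replicates 1 to 4 labelled KO, against 425.6 to 458.3 CPM in WT, and its part in the Id and Skil values was not tested.

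Of 72 other genes of the pathway, 52 had enough reads to be tested. Of these, 6 fell, 0 rose and 46 did not pass (edgeR), and an unadjusted p below 0.05 was met by 11 lower and 4 higher genes. Over all tested genes 1.66% fell, 0.599% rose and 14.6% met the unadjusted threshold in either direction. By DESeq2 there were 6 lower and 3 higher, and by limma voom 6 lower and 2 higher, where the shares over all genes were 3.36% and 2.24% for DESeq2 and 2.99% and 1.83% for voom. The 6 that fell in edgeR were Thbs1, Bmp2, Inhba, Fstl1, Cdkn1c and Tsc22d1.

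Thbs1 (thrombospondin-1), a platelet alpha-granule protein that activates latent TGF-beta, was at 6.71, 4.99, 6.36 and 1.62 CPM in replicates 1 to 4 labelled KO, against 190.1, 215.8 and 85.6 CPM in the 3 WT replicates in order. The mean was 33.3-fold lower in the libraries labelled KO (log2 fold change -5.07, SE 0.473, edgeR adjusted p = 0.000233), and the groups were far apart. Of the 8 other tested genes that bear on latency and release, 0 passed. Over all 9, the groups did not overlap for 2 that were higher with the KO label, Itgb6 and Mmp14, and 2 that were lower, Thbs1 and Ltbp2. Over all tested genes these shares were 8.23% and 7.47%. Nrros, which tethers latent TGF-beta on myeloid cells, was at 156.6 ± 42.8 (SD, n = 4) against 118.3 ± 22.5 CPM (SD, n = 3), with a log2 fold change of 0.40 (edgeR adjusted p = 0.464). Mmp14, a membrane protease, was at 12.6 ± 4.15 against 4.52 ± 1.96 CPM (1.48, edgeR adjusted p = 0.0902). Itgb6, Mmp14 and Nrros were chosen after their values were seen.

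Among ligands, Bmp2 had 0 reads in all 4 libraries labelled KO and 40, 12 and 63 in the 3 WT replicates in order. With 3 counts taken as the group's floor, it was at least 60.65-fold lower in the libraries labelled KO (edgeR adjusted p = 0.0125). That bound takes the WT reads as exact, and the lower counting limit of the ratio was 48.5. Bmp2 entered the test through its WT reads alone, and its call was lost without WT replicate 3 (adjusted p = 0.0531). Inhba, the subunit of activin A, was at 0.0781, 0.185, 0.548 and 0.135 CPM in replicates 1 to 4 labelled KO, against 1.94, 3.98 and 4.23 CPM in the 3 WT replicates in order (log2 fold change -3.82, SE 0.679, edgeR adjusted p = 0.015). Inhba entered the test through its WT reads, so its call has to be read with that filter in mind. Its log2 fold change was -4.62 without KO replicate 3. The call was lost without KO replicate 2 (edgeR adjusted p = 0.0628), WT replicate 2 (0.0524) or WT replicate 3 (0.0622). With the length offset it was -4.62 as well and also lost its call (edgeR adjusted p = 0.0545), as it did without both libraries low in Y-linked genes (edgeR adjusted p = 0.0722). Fstl1, a secreted glycoprotein that binds BMPs, was at 12.6, 13.8, 18.5 and 12.2 CPM against 28.5, 42.1 and 29.3 CPM. It fell (-1.22, SE 0.229, edgeR adjusted p = 0.0197), and the call was lost without KO replicate 2 (0.0755) or WT replicate 2 (0.0737) and with the length offset (0.0929).

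Of 13 other known target genes, 6 were tested, of which 2 fell and 4 did not pass (edgeR), where 1.66% of all tested genes fell. The log2 fold change was above 0 for 4 of these 6, with a median of 0.26. Cdkn1c (p57), a cyclin-dependent kinase inhibitor that TGF-beta induces in haematopoietic cells, was at 8.78, 9.76, 11.1 and 4.16 CPM in replicates 1 to 4 labelled KO, against 37.3, 36.4 and 27.4 CPM in the 3 WT replicates in order (log2 fold change -1.998, SE 0.309, edgeR adjusted p = 0.00622). Tsc22d1, named for its induction by TGF-beta, was at 178.3, 184.4, 241.8 and 145.0 CPM against 1254, 651.2 and 556.2 CPM (-2.13, SE 0.282, edgeR adjusted p = 0.00237). Cdkn1a (p21), another kinase inhibitor that TGF-beta can induce, lay the other way, at 4.45, 10.1, 7.72 and 10.2 CPM against 2.62, 0.75 and 2.89 CPM. Its groups did not overlap, and it missed the main threshold (log2 fold change 1.95, SE 0.495, edgeR adjusted p = 0.0804) but passed with DESeq2 (adjusted p = 0.00183). Ltbp2, an LTBP that does not bind TGF-beta, was at 0.148 to 0.402 CPM against 0.422 to 1.29 CPM (-1.54, SE 0.685, edgeR adjusted p = 0.333). The 21 other SMAD regulators, which include ubiquitin ligases, deubiquitinases and coactivators such as Ep300, were all tested and 0 passed in edgeR, while an unadjusted p below 0.05 was met by 3 lower and 0 higher genes, a share near the 14.6% of all tested genes that met it in either direction.

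**Figure D4:**
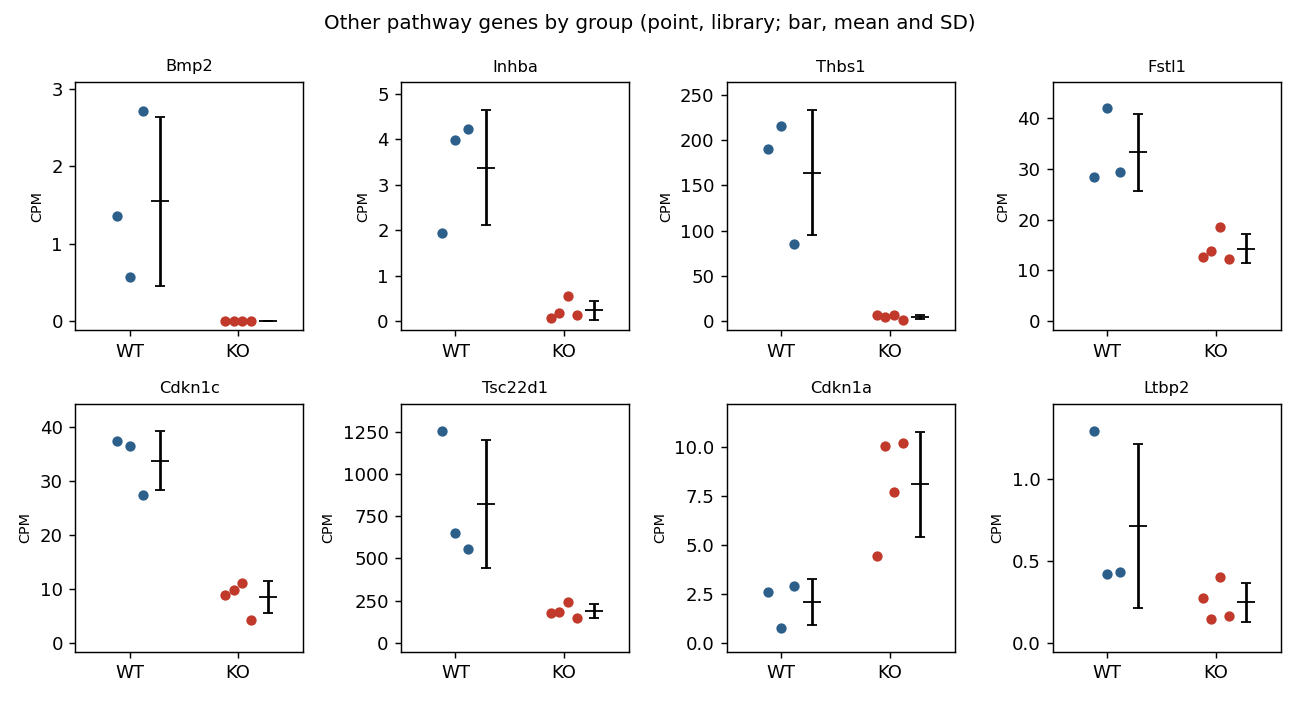
CPM of the 8 named pathway genes outside the 31, by group. Points are libraries (3 WT in blue, 4 labelled KO in red) and the black bar is the mean with its SD. In each of the first 6 panels, whose genes fell, every library labelled KO lies below every WT library, while Cdkn1a lies the other way.

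Levels of some marker lists also differed between the groups. Of 17 megakaryocyte and platelet genes, 14 fell and 0 rose (edgeR), Pf4, Gp6 and Cd9 among them, with Gp6, the platelet collagen receptor, at 0.185 to 0.546 CPM in the libraries labelled KO and 36.2 to 63.2 CPM in WT. Over all tested genes 1.66% fell and 0.599% rose, and the marker lists were chosen with earlier results of these data known. Ltbp1, Lrrc32 and Thbs1 are known in platelets, and the part of the megakaryocyte genes in their fall was not tested. Of 10 stem cell and sort markers, 1, Mllt3, fell and 0 rose, and the summed level was 1027 to 1246 CPM in the libraries labelled KO and 1360 to 1660 CPM in WT. Of the progenitor markers Cd48, Flt3 and Cd34, Cd48 rose, and all 3 were higher in each library labelled KO than in any WT library. Their sum was 360.7 to 692.5 against 151.7 to 251.5 CPM, and its part in the values above was not tested. Of 10 stromal and endothelial genes, Cdh5 and Col3a1 were at 0 in every library, Sparc rose, and the sum was 69.7 to 89.8 CPM against 77.9 to 106.3 CPM. Erythroid genes summed to 1739 to 2348 CPM in the libraries labelled KO and 1923 to 2989 CPM in WT, most of it Car2 (mean 1899 against 2289 CPM). Of these 9 genes 0 passed (edgeR), and the log2 fold change was above 0 for 5 and below 0 for 4. Their groups did not overlap for 2, Hba-a1 and Hba-a2, both lower with the KO label, where 7.47% of all tested genes lay lower in this way. Granulocyte and monocyte genes summed to 624 to 779 against 762 to 894 CPM, most of it Lyz2 (mean 508.2 against 714.3 CPM). Of these 10 genes, 1 rose, Ms4a3, and 1 fell, S100a9 (edgeR). Lymphoid genes summed to 172.3 to 340.6 against 120.8 to 196.5 CPM. The groups overlapped in each of these sums.

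**Figure D5:**
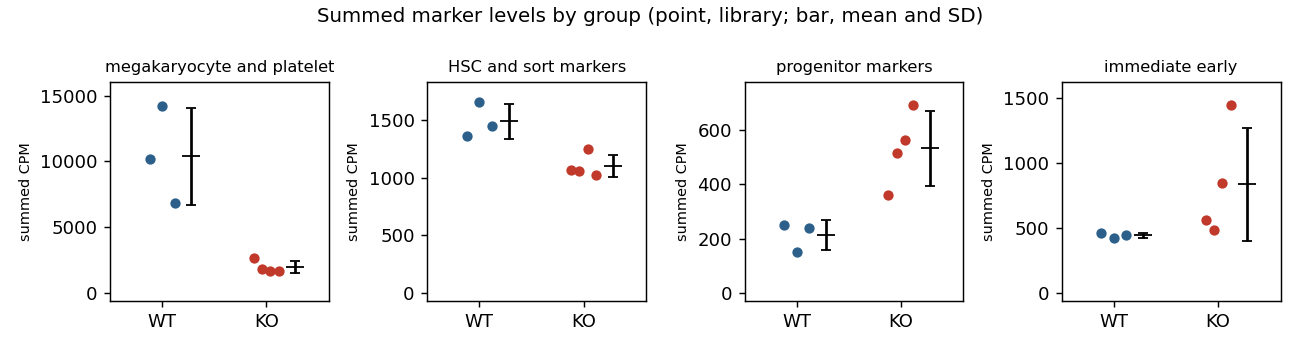
Summed CPM of 4 marker lists by group, with libraries as points and the mean with its SD as a black bar. The erythroid, granulocyte and monocyte, lymphoid, and stromal and endothelial sums are not shown, and these overlapped between the groups. Megakaryocyte and platelet genes and stem cell markers were lower in all 4 libraries labelled KO than in any WT library, while progenitor and immediate early genes were higher.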

How the data were processed

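SMART-Seq v4 libraries, a kit that does not mark strand, were sequenced from sorted LT-HSCs, per the labels' protocols. Cutadapt and Salmon 0.11.2 with mm10 were used, per the submitters' processing notes, and no source used here gives the transcript set. The authors deposited estimated counts and TPM per transcript. Of 112092 transcripts, 111787 matched the GENCODE M21 annotation (GRCm38) and 305, with 0.084% to 0.123% of reads, did not. Estimated counts were summed per gene and rounded.

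Libraries labelled KO (n = 4) and WT (n = 3) were compared over 14695 genes with edgeR 4.0.16 in R 4.3.3 (quasi-likelihood test, TMM, filterByExpr, Benjamini-Hochberg, adjusted p below 0.05), and CPM uses TMM-adjusted totals. The SE is the absolute log2 fold change over the root of the F statistic. Intervals and floors from reads cover counting error only, since reads carry no molecular identifiers. The code was tested on simulated data. Alternatives used DESeq2 1.42.0, limma 3.58.1 voom, other scaling and filters (at least 1 CPM in 3 libraries and 50 reads), a length offset, a replicate block, Y-linked expression as a covariate (sum above 100 CPM), and left-out libraries. Added after seeing the data were coding transcripts only, and leaving out both libraries low in Y-linked genes.

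The members and lists were chosen with earlier results of these data known. All 31 members are named. Other pathway genes are named if they passed, plus the 2 of greatest change whose groups did not overlap. Itgb6, Mmp14 and Nrros were added after their values were seen. Of 74 listed, 2 names had no match. Eng, Ltbp3, Tgfb3, Ltbp1, Tgfbr3, Acvr1 and Inhba overlap another annotated gene, so their reads may be shared. No protein sequences were used here.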

Additional observations from a re-analysis of the deposited data

Results flagged for a closer look

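For 4 of 37 genes examined, a single library labelled KO lay far from the remaining 3 by Dixon's gap criterion, where chance flags about 1 in 20 groups. Bmpr1a was at 4.21 CPM in KO replicate 2, and its other values were 0.621 to 0.976. Bambi was at 10.9 CPM in KO replicate 1, outside 13.0 to 13.3. Smad3 was at 16.3 CPM in KO replicate 4, outside 26.5 to 28.3. B4galt1, the targeted gene, was at 19.3 CPM in KO replicate 1, outside 14.6 to 14.9. Over the 29 tested members, WT replicate 2 gave the highest of the 7 values for 14 and KO replicate 4 the lowest for 9. Groups of 3 were not examined.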

How the results depend on the processing

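The 2 falls among the 29 tested genes, Ltbp1 and Lrrc32, were counted under all 17 alternatives. No rise was called in the main analysis, while DESeq2 called 2, limma voom 1 and the length offset 1. Of the other pathway genes none rose, while DESeq2 called 3 higher, voom 2, the Y-linked covariate 1 and coding transcripts alone 1, and 4 to 7 fell under every alternative. Replicate numbers did not pair the samples, and with the replicate block 2 members fell, 0 rose and 5 other pathway genes fell, without Fstl1 (adjusted p = 0.0782 in edgeR). The median log2 fold change was -0.21 without both libraries low in Y-linked genes (chosen after seeing the data), and -0.29 to -0.023 with single replicates left out.

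Directions turned for the genes below, none of which passed the main test, and the cause was not tested. Tgfb1 was -0.015 with RLE scaling, -0.0035 with no filter, -0.0098 with the stricter filter, -0.019 with DESeq2, -0.16 with voom, -0.053 with the length offset, -0.090 with the replicate block, -0.13 without both libraries low in Y-linked genes and -0.0055 for coding transcripts. With voom, Tgfb3 was 0.78, Smad5 0.015, Smad7 0.47 and Smurf1 0.075. With the replicate block, Tgfb3 was 0.68, Ltbp3 0.035 and Smad7 0.26. Without both libraries low in Y-linked genes, Tgfbr2 was 0.049 and Smad7 0.10. For coding transcripts (added after seeing the data), Smurf1 was 0.77 and Ski 0.24. With single replicates left out, Tgfb1 ran from -0.20 to 0.22, Tgfb3 from -0.67 to 1.17, Ltbp3 from -0.54 to 0.020, Tgfbr2 from -0.18 to 0.077, Acvr1 from -0.20 to 0.56, Smad2 from -0.022 to 0.33, Smad5 from -0.46 to 0.069, Smad7 from -0.29 to 0.39 and Smurf1 from -0.26 to 0.18. Bmp2 could not be tested under the stricter filter. Tgfb2 and Acvrl1 had too few reads to be tested.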
